A study of Mus musculus with 2 samples.

Results

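The cells described here were T cells of the mouse brain that lacked Cd4 and Cd8b1 transcripts and carried transcripts of Cd163l1, Il17re, Tmem176a and Tmem176b, a gene set that marks IL-17-type gamma-delta T cells. They were chosen by a gate on single-cell UMI counts (a UMI, or unique molecular identifier, tags 1 captured transcript). A cell entered the gate with at least 1 UMI of Cd3d, Cd3e and Cd3g together, at least 2 UMIs of the 4 marker genes together, no UMI of Cd4 or Cd8b1, fewer than 2 UMIs of Cd79a and Cd79b, fewer than 3 of C1qa, C1qb and C1qc, under 1% of its UMIs from S100a8 and S100a9 and at most 15% from mitochondrial genes. Of 2478 cells in all, the gate held 16 WT and 85 twi cells, 101 together, and these are called gated cells below. Genes of the T cell receptor chains were not analysed here, so that the gamma-delta receptor itself was not checked. The members were selected on the values of the gate's genes, and those values are given as a description.

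CD45+ cells, that is blood-derived cells and microglia, were sorted from brains at postnatal day 21 (p21) and profiled by 10x 3′ single-cell RNA sequencing. By the paper's methods, mice were perfused and the meninges were taken off before brain cells were isolated. The WT library came from galc+/+ mice and the twi library from galc-/- mice, the twitcher model of globoid cell leukodystrophy, both on C57Bl/6. Galc encodes the lysosomal enzyme galactosylceramidase, and twitcher mice lack it in every cell. Each library was 1 pool of 2 to 3 animals, so genotype, pool and library cannot be told apart, no test of the genotype was possible, and all 95% intervals below are exact and cover counting error only. The WT library held 1278 barcodes and 3749714 UMIs (median 2216 per barcode), while 1220 barcodes, 4807539 UMIs and a median of 3149.5 were counted in twi. No barcode (0) was shared between the libraries. Of these barcodes, 1271 WT and 1207 twi cells passed the mitochondrial limit. Xist, which is transcribed from the inactive X of female cells, had no UMI (0) in any WT cell, and a UMI without Y-linked transcripts in 45.4% of twi cells, so that sex differed between the pools along with genotype.

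IL-17-type gamma-delta T cells are made in the fetal and newborn thymus, acquire their effector programme there, and settle in barrier tissues and the meninges. The transcription factors cMAF and SOX13 take part in the programme, and the B lymphoid kinase BLK is needed for it. The cells sense IL-23, IL-1beta and IL-7 through Il23r, Il1r1 and Il7r, answer with IL-17A and other cytokines, and home by CCR6, CCR2 and CXCR6. Cd163l1 encodes SCART1, a scavenger receptor of these cells, Il17re a subunit of the IL-17C receptor, and Tmem176a and Tmem176b a pair of membrane proteins found in IL-17-type lymphocytes and myeloid cells.

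The gated cells made up 1.26% (16 of 1271, 95% interval 0.721 to 2.04%) of the WT cells and 7.04% (85 of 1207, 5.66 to 8.63%) of the twi cells, 5.59 times the share (95% interval 3.25 to 10.2). The ratio depends on what else was in the pool. B cells (at least 2 UMIs of Cd79a and Cd79b and no Cd3) were 43.0% of WT and 12.3% of twi cells. Of cells with a Cd3 transcript, they were 4.32% in WT (16 of 370) and 9.70% in twi (85 of 876), a ratio of 2.24 (1.31 to 4.10), and of cells outside the B and neutrophil gates 3.6% and 8.99%, a ratio of 2.49 (1.45 to 4.56). CD8 cells (Cd3 with Cd8b1 and no Cd4) went from 7.95% to 32.0%, 4.02 times the share (3.22 to 5.06). NK cells (at least 2 UMIs of Ncr1 and Klrb1c and no Cd3) were 5.11% and 4.64%, a ratio of 0.907 (0.623 to 1.32). The interval of the gated cells thus lay above that of the NK cells and overlapped that of the CD8 cells. Shares of a sorted pool do not give cell numbers per brain.

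**Figure D1:**
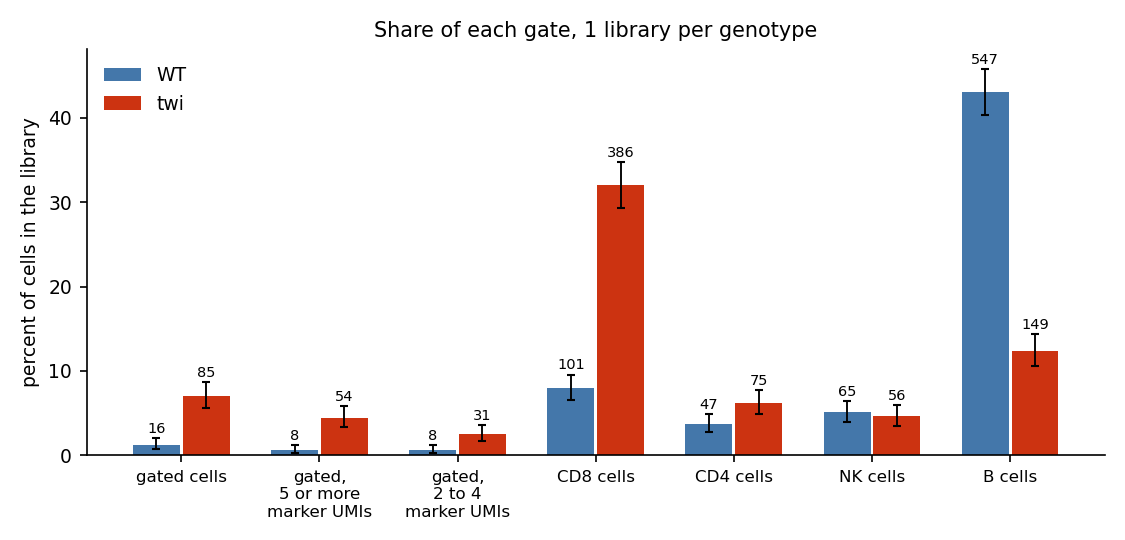
Share of each gate among all cells of a library, in percent, for WT (blue) and twi (red). Bars are the share in 1 library, error bars the exact 95% binomial interval for counting error, and the numbers above the bars the cells counted. The gated cells stand at 1.26% in WT and 7.04% in twi, and NK cells at 5.11% and 4.64%.

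Sex and the share were measured side by side. Xist without Y transcripts was found in 62 of 85 twi gated cells (72.9%, 95% interval 62.2 to 82.0%), against 57.0% of twi CD8 cells, 39.3% of NK cells and 32.2% of B cells. Y transcripts without Xist were found in 12.9%, 13.5%, 28.6% and 21.5% of these classes in the same order. Neither was seen in 12 of 85 gated, 105 of 386 CD8, 17 of 56 NK and 67 of 149 B cells. Detection thus differed between the classes, and the shares of Xist alone do not compare their sex. Among twi cells with Xist and no Y transcript, 11.3% (62 of 548, 8.79 to 14.3%) were gated cells, and among twi cells with Y transcripts and no Xist 5.31% (11 of 207, 2.68 to 9.31%). Within cells with Y transcripts and no Xist of both libraries, gated cells were 1.23% of WT (6 of 487) and 5.31% of twi (11 of 207), a ratio of 4.31 (1.46 to 14.2). For marker-high cells it was 2 of 487 and 5 of 207, a ratio of 5.88 with an interval (0.963 to 61.8) that includes 1. A share that differs between sexes within 1 pool can also reflect single animals of that pool, which was not tested.

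Of the genes that chose the cells, Cd163l1 (chr7:140218267-140231145, mm10) had 41 UMIs in 8 of 16 WT gated cells and 305 UMIs in 44 of 85 twi gated cells. Its level was 916 CPM (UMIs of the gene scaled to a common total over the summed cells, 95% interval 657 to 1243) in WT and 925 CPM (824 to 1035) in twi. Il17re (chr6:113458484-113470758) had 9 and 47 UMIs in 7 and 27 cells. Cd163l1 and Il17re were the sparser markers, and 9 of 16 WT and 49 of 85 twi gated cells had a UMI of either. Tmem176a (chr6:48840919-48847071, plus strand) was seen in 13 WT and 66 twi cells, and Tmem176b (chr6:48833818-48841496, minus strand) in 13 and 76. These neighbouring genes are transcribed away from each other, and their annotated ends overlap by 578 bases at the 5′ side. Both were found together in 11 of 16 WT and 60 of 85 twi gated cells. In B cells, which should lack the set, Cd163l1 was found in 0.366% of 547 WT and 1.34% of 149 twi cells, at median depths of 2011 and 2202 UMIs per cell against 3018 and 3404 in the gated cells.

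The marker UMIs of a gated cell ran from 2 through a median of 4.5 to 32 in WT and from 2 through 7 to 39 in twi. The gate's edge was not empty. In twi, 19 cells had exactly 2 marker UMIs, just inside, and 27 otherwise eligible cells had 1 marker UMI, just outside. The NK receptor gene Klrb1c was found in 63.2% of the former and 44.4% of the latter, and Ly6c2, a surface gene of CD8 and NK effector cells, in 78.9% and 70.4%. In WT, 2 cells had 2 marker UMIs and 4 cells had 1.

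How far the gated cells shared a wider programme was read from 8 genes outside the gate, namely Rora, Maf, Blk, Ltb4r1, Serpinb1a, Ramp1, Actn2 and Ckb. These 8 and the division at 5 marker UMIs used below were picked after their values had been seen, and serve as a description. With 5 or more marker UMIs, 48 of 54 twi cells (88.9%) and 8 of 8 WT cells had a UMI of at least 3 of the 8 genes. With 2 to 4 marker UMIs, 8 of 31 twi cells (25.8%) and 2 of 8 WT cells did. Among cells that failed only the marker step, it was 1 of 27 with 1 marker UMI and 9 of 223 with none in twi. Cells with 2 to 4 marker UMIs thus lay between the other classes, and most of them lacked the wider programme. Their depth was 3404 median UMIs in twi against 3506 in cells with 5 or more, but 2036.5 against 3088 in WT. The cells with 5 or more marker UMIs, 8 in WT and 54 in twi, are called marker-high below. The 8 genes were common in them, while the genes of many other gated cells went against the name IL-17-type. As the genes and the cut were picked on these data, the name was not tested for the marker-high cells. In those of twi, Il17a had 7 UMIs and Il17f 0.

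**Figure D2:**
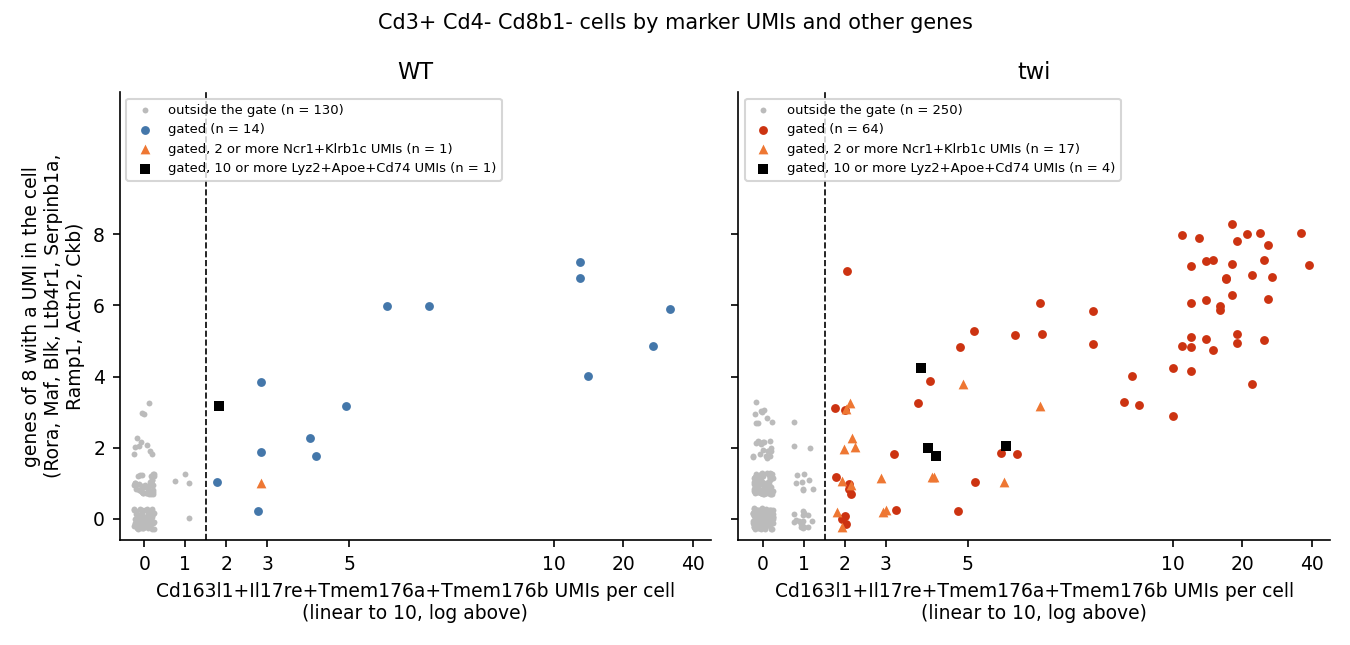
Each point is 1 cell with Cd3 and without Cd4 or Cd8b1 transcripts in the WT (left) or twi (right) library. The x axis gives its UMIs of Cd163l1, Il17re, Tmem176a and Tmem176b (linear to 10, logarithmic above), and the y axis how many of 8 other genes had a UMI, with small random shifts to part the points. The dashed line is the gate. Cells with 5 or more marker UMIs mostly had 3 or more of the 8 genes, 48 of 54 in twi, while of the 17 gated twi cells with NK receptor transcripts (triangles, drawn for gated cells) 14 had 2 to 4 marker UMIs. Squares mark gated cells rich in myeloid transcripts.

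Transcripts of 2 other cell classes were present within the gate. NK receptor genes came first, since at least 2 UMIs of Ncr1 and Klrb1c were counted in 17 of 85 twi gated cells (20%) and in 1 of 16 WT cells. They fell mainly on the low side, with 14 of 31 twi cells of 2 to 4 marker UMIs (45.2%) and 3 of 54 marker-high cells (5.56%). Over the whole list of 18 NK receptors and factors, twi gated cells had 960 UMIs (2912 CPM, 18 of 18 genes detected, Fcer1g the most abundant with 243), against 219 UMIs (1126 CPM) in the marker-high cells, where Klrg1, Klra3, Klra4, Klra8 and Klra9 were at 0. Myeloid transcripts came from single cells. A WT cell with 75 UMIs of Lyz2, 228 of Cd74 and 63 of Cd209a, and 4 twi cells with 90 to 582 UMIs of Lyz2, each had only 1 or 2 UMIs of Cd3. These 4 cells held 1366 of the 1390 Lyz2 UMIs, 265 of the 268 Apoe UMIs and 94 of the 95 Spp1 UMIs of the twi gated cells. The twi cell with 237 UMIs of Lyz2 had 6 marker UMIs and so counted as marker-high. Microglia and macrophage markers came to 1372 CPM in marker-high cells of twi and 186 CPM in those of WT. The 12 microglia and macrophage markers summed to 5236 CPM in twi and 2145 CPM in WT gated cells, and to 122 and 145 CPM without these cells, with P2ry12 and Tmem119, which define microglia, then at 0 in both libraries. B cell markers in WT (Cd74 first) came to 7083 CPM, and to 203 CPM without the myeloid-rich cell. Pax5 was at 0 in WT and Vpreb3 at 0 in both.

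The gate's Cd8b1 step removed more twi cells than any other exclusion, leaving 85 of 119, and 16 of 17 in WT. Of the twi CD8 cells, 34 (8.81%) had 2 or more marker UMIs, and these carried 110 of the 127 Cd163l1 UMIs of all 386 twi CD8 cells. Their median of the 8 other genes was 1. Of the 10 twi CD8 cells with 5 or more marker UMIs, however, 6 had at least 3 of the 8 genes, and their Cd8b1 count had a median of 6 UMIs, the same as in CD8 cells with no marker UMI. In WT, 1 CD8 cell had 2 or more marker UMIs and none (0) had 5. Barcodes with 5 or more marker UMIs and Cd8b1 were thus seen in the twi library. Their median depth was 4981.5 UMIs, against 3907 in twi CD8 cells with no marker UMI. The doublet caller Scrublet marked 1 of these 10 barcodes, but 0 of the 85 twi gated cells, the myeloid-rich ones included. Single cells and mixed droplets therefore cannot be told apart among the 10.

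The comparison with CD8 and NK cells asked which other genes set the gated cells apart within 1 library. UMIs were summed over the cells of a gate, and genes with at least 10 UMIs in both gates together were compared. Between gated and CD8 cells in twi, 13.6% of 8874 genes were at least 2-fold higher and 6.36% at least 2-fold lower in gated cells, with a median log2 ratio of 0.21. A list of 59 transcription factors, cytokine receptors, cytokines and surface genes is called the T17 list and leaves out the gate's genes and Rora. It also holds genes of other lymphocytes, such as Ifng and Gata3, and Ltb, Id2 and Ifngr1 had the most UMIs in gated cells. Its sums thus do not measure an IL-17 programme alone. Of the 59 genes, 46 passed the count filter, 29 of these were at least 2-fold higher, 1 was at least 2-fold lower, and the median log2 ratio was 1.82. The list summed to 9434 CPM in gated and 3935 CPM in CD8 cells, 2.40 times the level (2.30 to 2.50), or 2.45 times (2.35 to 2.56) when CD8 cells with 2 or more marker UMIs were left out. In WT, where 25.1% of 4605 genes were higher and 14.1% lower, 29 list genes passed, 18 of them were higher and 1 lower, and the summed ratio was 3.45 (3.10 to 3.83). The list was drawn up with earlier results of these data known, and cells were picked on genes that go with it, so that the counts describe the cells and test nothing.

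Among the transcription factors, 8 of 13 with enough counts were at least 2-fold higher than in CD8 cells. Rora (chr9:68653786-69388246), which encodes the retinoid-related orphan receptor alpha, had 82 UMIs in 47 twi gated cells and 36 UMIs in 34 CD8 cells, 12.6 times the level (8.39 to 19.1). In WT it had 6 UMIs in 5 gated cells and 0 in the CD8 cells, which makes it 17.7-fold higher when a floor of 3 UMIs is put for 0. Folds with 3 UMIs put for 0, here and below, leave out the counting error of the other count and are not lower limits. Maf had 13 WT and 85 twi UMIs, and was 12.3-fold over CD8 cells in twi (8.32 to 18.6). Blk, the kinase, had 11 and 50 UMIs, all 50 of the twi UMIs in marker-high cells, and was 39.4-fold over CD8 cells (17.8 to 103). Blk is also a B cell gene and was found in 31.1% of WT B cells. Zbtb16, the gene of the innate-like T cell factor PLZF, was 24.8-fold over CD8 cells in twi (8.18 to 101), and Ikzf2, which encodes Helios, 5.57-fold (4.16 to 7.47). Rora and Ikzf2 were less apart from CD4 cells (Cd3 with Cd4 and no Cd8b1, 47 in WT and 75 in twi), with Rora at 1.17 (0.377 to 3.11) in WT and 3.91 (2.30 to 7.04) in twi and Ikzf2 at 1.22 (0.611 to 2.30) and 1.29 (0.927 to 1.81). Id2, with the most UMIs of these factors, was 1.58-fold over CD8 cells (1.41 to 1.75) and 0.794 of NK cells (0.687 to 0.918). Gata3 did not stand apart from CD8 cells in twi, at a ratio of 1.19 (0.707 to 1.93), and Sox13 had 5 UMIs in twi and 0 in WT.

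The cytokine receptor list had 7 of 15 genes at least 2-fold higher and none (0) lower than in twi CD8 cells. Il23r, the receptor subunit for IL-23, had 2 UMIs in WT and 12 in 11 twi gated cells, a ratio to CD8 cells of 22.1 (5.95 to 122). Il1r1 had 1 and 13 UMIs, with 0 in CD8 and NK cells of both libraries, and was 23.9-fold over twi CD8 cells with 3 UMIs put for 0. Both receptors were thus rarely or never seen in CD8 and NK cells. Il7r, the receptor for the survival cytokine IL-7, had 22 and 110 UMIs and was 2.06-fold over CD8 cells in twi (1.64 to 2.58) and 1.22-fold in WT (0.741 to 1.91). Against NK cells it was 16.7-fold (6.33 to 62.3) in twi. Il18r1 was 5.60-fold over CD8 cells in twi (3.94 to 7.97) and 2.58-fold over NK cells (1.48 to 4.76). Ifngr1, a subunit of the interferon-gamma receptor and the receptor gene of the list with the most UMIs, stood at 1921 CPM in WT and 1144 CPM in twi gated cells, 7.60 times (5.63 to 10.2) and 2.91 times (2.56 to 3.30) the CD8 level.

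Cytokine transcripts were few. Il17a had 1 UMI in WT and 7 UMIs in 4 twi gated cells, all marker-high, against 2 UMIs in the twi CD8 cells (19.3-fold, 3.68 to 190). Il17f had no UMI (0) in gated, CD8 or NK cells of either library, which allows up to 9.10 CPM in twi gated cells and 67.0 CPM in WT at a floor of 3 UMIs. Lower levels were not detectable at this depth. Csf2, encoding GM-CSF, had 8 UMIs in 7 twi gated cells (7.35-fold over CD8 cells, 2.24 to 25.7) and 0 in WT. Ifng had 21 UMIs in 11 twi gated cells, 8 of them in 5 marker-high cells, and its ratio to CD8 cells was 1.19 (0.707 to 1.93). Tnf had 3 and 16 UMIs. Ltb, lymphotoxin beta, had the most UMIs of the cytokine genes and stood at 1609 CPM in WT and 1347 CPM in twi, 1.49 times the CD8 level (1.34 to 1.65) and 2.12 times the NK level (1.74 to 2.60) in twi.

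The scavenger and surface genes gave the clearest contrast, with 12 of the 12 that passed the count filter at least 2-fold over twi CD8 cells, a median log2 ratio of 3.52 and a summed ratio of 11.4 (10.0 to 12.9). Serpinb1a, a protease inhibitor, had 12 UMIs in WT and 125 UMIs in 42 twi gated cells, 118 of them in marker-high cells, and was 28.7-fold over CD8 cells (18.5 to 46.5). It too is a B cell transcript, at 220 CPM in WT and 370 CPM in twi B cells. Ltb4r1, the receptor for the chemoattractant leukotriene B4, had 16 and 71 UMIs and was 49.0-fold over CD8 cells in twi (23.5 to 118). Ramp1, which forms the receptor for the neuropeptide CGRP with a partner, had 29 and 152 UMIs and was 11.8-fold over CD8 cells in twi (8.85 to 15.9) and 10.3-fold in WT (5.8 to 18.3). Actn2 was 11.6-fold (7.80 to 17.6), with 79 of its 80 twi UMIs in marker-high cells and 0 UMIs in NK cells of either library. Ckb, brain-type creatine kinase, was 12.3-fold (9.13 to 16.7). The scavenger receptor gene 5830411N06Rik, which encodes SCART2, had 8 UMIs in 2 WT cells and 22 UMIs in 7 twi cells, 4.67-fold over CD8 cells (2.52 to 8.57). Of cells with Cd163l1, 8 WT and 43 twi cells lacked 5830411N06Rik, 2 and 6 cells had 5830411N06Rik alone, and 1 twi cell had both. With 5830411N06Rik in so few cells, whether the 2 scavenger receptors keep apart was not tested.

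Several tissue homing genes were higher, and most genes of recirculation through lymph nodes lower, than in CD8 cells of twi. Of 16 homing and effector surface genes 7 were at least 2-fold higher and 0 lower, with a summed ratio of 1.77 (1.67 to 1.87). Cxcr6, a receptor of tissue-resident lymphocytes, was found in 14 of 16 WT and 72 of 85 twi gated cells at 1452 and 1292 CPM. Its ratio to CD8 cells was 15.5 (10.2 to 23.9) in WT and 2.63 (2.34 to 2.96) in twi, where the CD8 level was 491 CPM against 93.5 CPM in WT. Ccr2, an inflammatory homing receptor, was 4.74-fold over CD8 cells in twi (3.79 to 5.92) and 1.25-fold over NK cells (0.944 to 1.68). Ccr6, in contrast, had 4 UMIs in WT and 1 UMI in twi. Icos was 5.32-fold (3.61 to 7.85) and Cd44, a marker of antigen-experienced T cells, 3.05-fold (2.04 to 4.50) over CD8 cells in twi. Of the 8 recirculation genes 5 were at least 2-fold lower and 0 higher, at a median log2 ratio of -1.31 in twi and -2.07 in WT. Ccr7, which guides T cells into lymph nodes, was at 18.2 CPM in gated and 126 CPM in CD8 cells of twi (ratio 0.144, 0.0523 to 0.318). Cd27, which is absent from the IL-17-type branch of gamma-delta T cells, had a ratio of 0.395 (0.257 to 0.584), and of its 27 twi UMIs 11 were in marker-high cells.

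**Figure D3:**
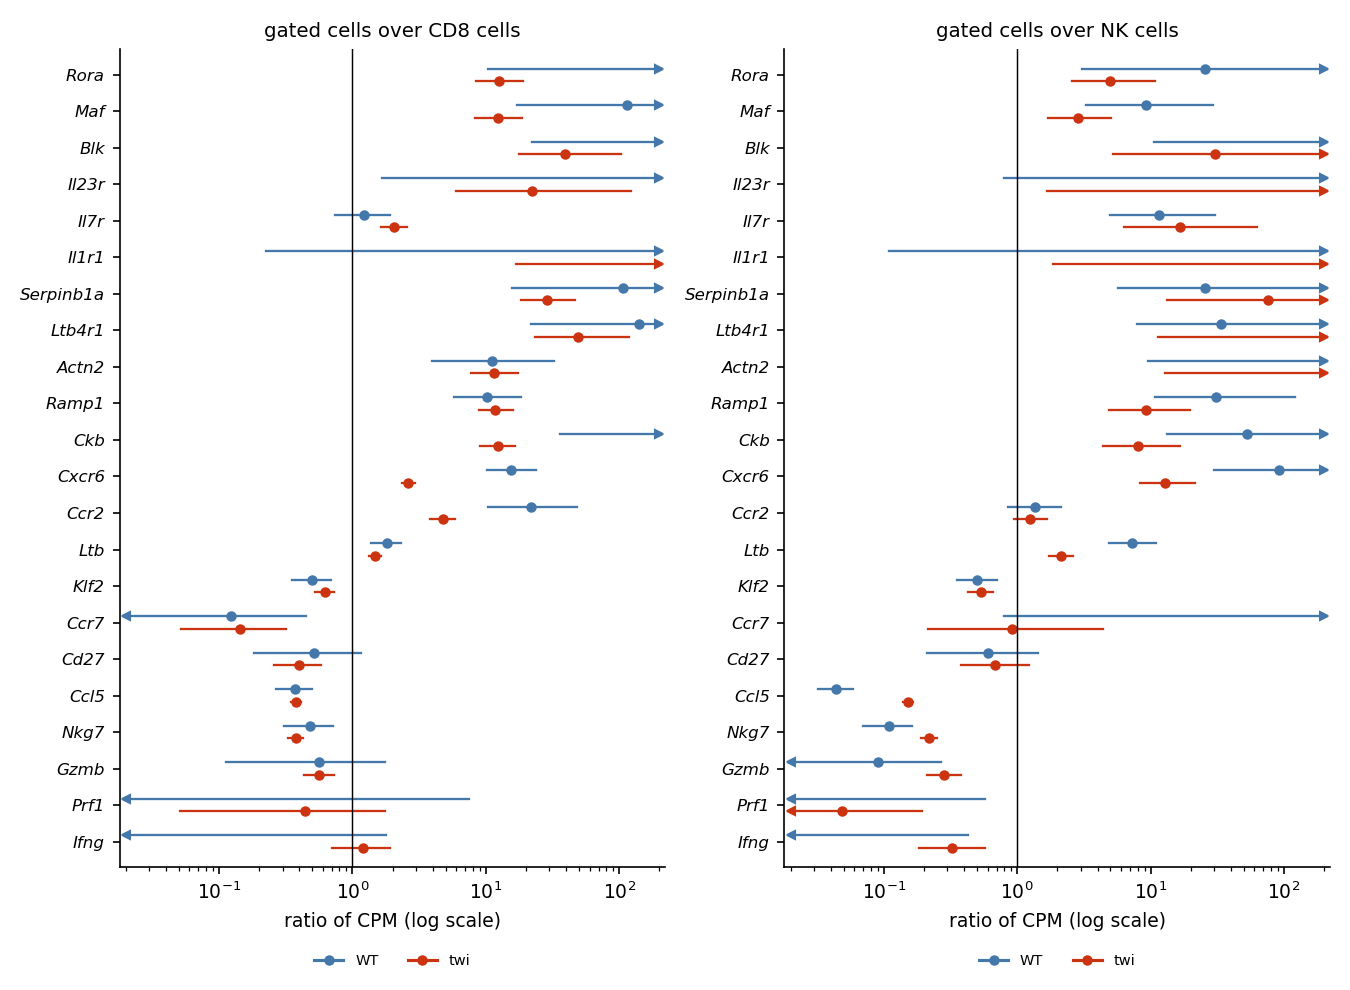
Ratio of the level in gated cells to that in CD8 cells (left) and NK cells (right), in CPM on a logarithmic axis, for WT (blue) and twi (red). Points are ratios of summed UMIs in 1 library, lines exact 95% intervals for counting error, and arrows intervals or points beyond the axis, including genes without a UMI in 1 of the gates. Blk, Serpinb1a and Ltb4r1 lie right of 1 against both gates, and Ccl5 and Nkg7 left of 1.

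Cytotoxic granule and chemokine genes were lower than in CD8 cells, with 7 of 16 at least 2-fold lower and 0 higher in twi, a median log2 ratio of -0.85 and a summed ratio of 0.476 (0.452 to 0.50). In WT, 3 of 14 were higher and 4 lower, where 25.1% of all genes were higher and 14.1% lower. The WT sum was 0.716 of the CD8 level (0.611 to 0.835). Ccl5, a chemokine of effector lymphocytes, had 45 UMIs in 4 WT cells and 654 UMIs in 45 twi gated cells, 0.378 of the CD8 level in twi (0.349 to 0.409). Nkg7 was at 0.377 (0.332 to 0.426), and Gzmb, granzyme B, at 0.564 (0.433 to 0.725). Gzmk had 0 UMIs in gated cells and was 11.4-fold lower than in CD8 cells of twi with 3 UMIs put for 0. Nkg7 had 63 of its 270 twi UMIs and Ccl5 149 of 654 in the 54 marker-high cells, but Gzmb 46 of 68, in 6 of these cells. Without the cells with 2 or more UMIs of Ncr1 and Klrb1c the list's ratio was 0.289 (0.268 to 0.311). Xcl1 was near the CD8 level at 0.881 (0.687 to 1.12). The T cell receptor signalling list had 6 of 16 genes at least 2-fold lower and 1 higher than in twi CD8 cells, among them Cd6 at 0.135 (0.0432 to 0.319), Cd28 at 0.211 (0.100 to 0.395) and the kinase gene Lck at 0.423 (0.340 to 0.520). Cd247, encoding the zeta chain that gamma-delta receptors also use, was at 1.28 (0.990 to 1.64). Pdcd1, which encodes the inhibitory receptor PD-1, was 5.23-fold over CD8 cells in twi (3.22 to 8.47), with 35 of its 36 UMIs in marker-high cells.

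Against NK cells in twi, 11.6% of 5788 genes were at least 2-fold higher and 8.47% at least 2-fold lower, with a median log2 ratio of 0.02. The T17 list had 24 of 41 genes higher and 4 lower, a median of 1.33 and a summed ratio of 1.58 (1.48 to 1.69). Of the 41, 9 had no UMI in 1 of the gates, and with these held at 3 UMIs the median was 1.28. In WT, where 13.4% of 3376 genes were higher and 15.4% lower, 16 of 29 were higher and 5 lower (sum 1.97, 1.76 to 2.19). Cytotoxic genes were lower in 11 of 14 cases and higher in 0, at 0.160 of the NK sum (0.151 to 0.169). Gzma, granzyme A, was at 194 CPM in gated and 7555 CPM in NK cells, and Ccl3 at 9.10 and 775 CPM. Of the 18 NK receptors and factors, 17 were at least 2-fold lower, of which Ncr1 and Klrb1c defined the NK gate. Compared with CD8 cells, in turn, 9 of the same 18 genes were at least 2-fold higher, and Fcer1g, an adaptor that pairs with activating receptors, was 11-fold higher (8.80 to 13.8), and 7.19-fold (5.62 to 9.23) without the myeloid-rich cells. In marker-high cells the list came to 0.870 of the CD8 level (0.754 to 0.999) instead of 2.25 (2.09 to 2.43).

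By size alone, the genes furthest above CD8 cells in twi were Spp1, Ltb4r1, Blk, Ncr1, Serpinb1a, Apoe, 5430421N21Rik, Gzmc, Rora and Ly6g5b, and a part of them came from few cells. Spp1 and Apoe UMIs lay almost wholly in the myeloid-rich cells (94 of 95 and 265 of 268), and the 158 Gzmc UMIs in 3 cells, 121 of them in 1. Blk, Ltb4r1, Serpinb1a and Rora were spread over 22 to 47 cells. Of 2 less studied genes, 5430421N21Rik had 64 UMIs in 30 twi cells, 58 of them in marker-high cells (16.8-fold, 10.1 to 29.0), and Ly6g5b 57 UMIs in 34 cells, 56 of them in marker-high cells (12.6-fold, 7.73 to 21.0). The genes furthest below included Dapl1, Gzmk, Cd8a, Cd6, Gm12840, Ccr7, Gm8369, Cd28 and Itm2a. Dapl1 had 217 UMIs in twi CD8 cells and 0 in gated cells, 13.1-fold lower with 3 UMIs put for 0. Cd8a, which the gate did not use, had 27 UMIs in 12 twi gated cells, at 0.115 of the CD8 level (0.0753 to 0.168), and 0 UMIs in WT. Against NK cells the leading genes were Actn2, Ltb4r1, Arhgap31, Lyz2, Ccl6, Klk8, Serpinb1a, Pld4, Spp1 and Plac8. Of these, Lyz2 had 1366 of its 1390 UMIs and Ccl6 40 of 43 in the myeloid-rich cells, Pld4 had 1 of 36 and Spp1 1 of 95 UMIs outside them, and Plac8 went from 29.9-fold (10.0 to 147) to 11.5-fold (3.71 to 57.3) without them. Arhgap31 had 57 UMIs in 32 twi gated cells and 0 in twi NK cells (11.5-fold with 3 UMIs put for 0). The trailing genes were Khdc1a, Ccl3, Klri2, Gzma, Klra3, Prf1, Klra4, Klra9, Styk1 and Klra8, mostly cytotoxic genes and NK receptors.

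**Figure D4:**
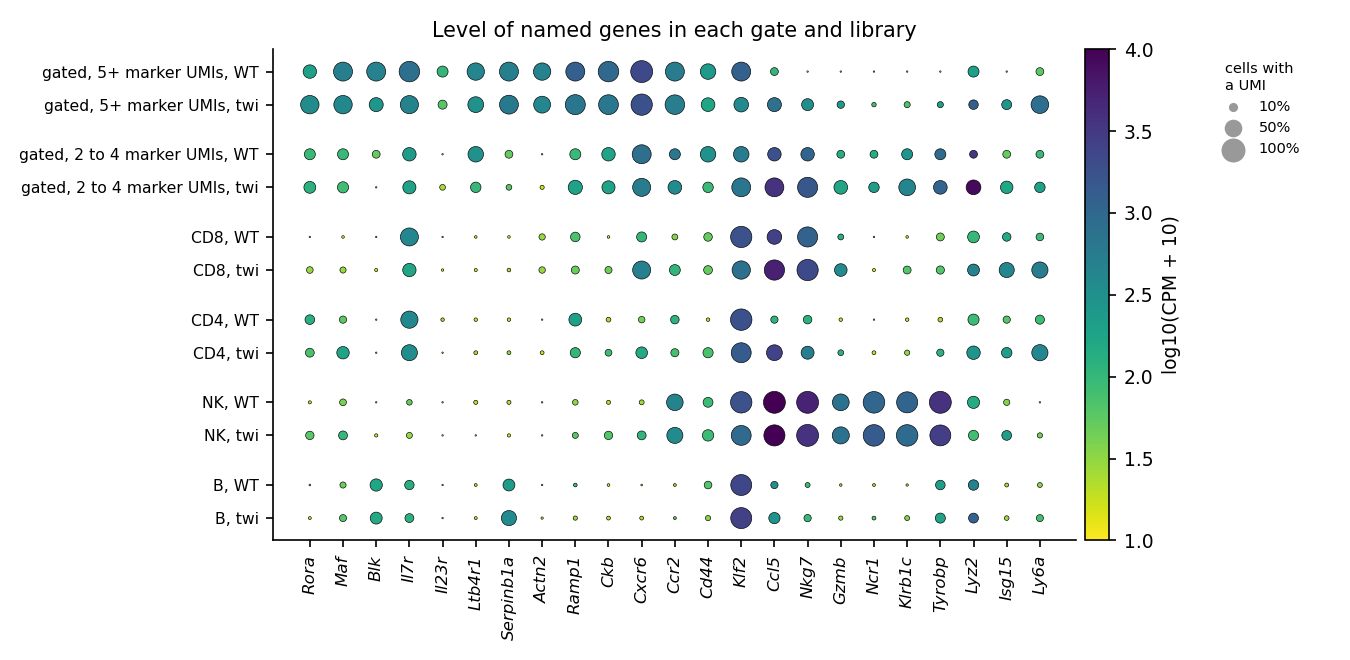
Level of named genes (columns) in each gate and library (rows). Colour gives log10 of CPM + 10 from summed UMIs and the area of a point the share of cells with a UMI. Actn2 and Ckb stand out in the upper pair of rows, the cells with 5 or more marker UMIs, and Ltb4r1 in the twi row of that pair, while Ccl5, Nkg7, Ncr1 and Klrb1c are stronger in the pair below, those with 2 to 4, and strongest in NK cells. Blk and Serpinb1a are also seen in B cells.

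Within the twi gate, marker-high cells differed from the cells with 2 to 4 marker UMIs along the same lines. Of 4359 genes 10.9% were at least 2-fold higher and 8.69% lower. The T17 list was at least 2-fold higher in 22 of 40 genes and lower in 4, the cytotoxic list lower in 6 of 12, the NK receptor list lower in 14 of 14 and the cell cycle list lower in 9 of 12. As the split used the marker genes, these counts are a description.

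The comparison of the libraries asked how the gated cells of twi differed from those of WT. The 16 WT cells gave 44757 UMIs and the 85 twi cells 329671, so that many genes seen in twi had no WT count to compare. Of 4771 genes, 14.5% were at least 2-fold higher and 14.8% at least 2-fold lower in twi, with a median log2 ratio of -0.10. With genes at 0 in 1 library held at 3 UMIs there, the shares were 4.21% and 18.1%. Of 41 genes of the T17 list 3 were higher and 5 lower, the median log2 ratio was -0.54 and the summed ratio 0.855 (0.777 to 0.942), or 0.749 (0.679 to 0.828) without the myeloid-rich cells. Rora was at 134 CPM in WT and 249 CPM in twi (ratio 1.86, 0.817 to 5.20), Maf at 0.888 (0.492 to 1.74), Il7r at 0.679 (0.427 to 1.13), Cxcr6 at 0.890 (0.684 to 1.17) and Serpinb1a at 1.41 (0.782 to 2.81). All these intervals include 1, although those of Il7r (0.569, 0.358 to 0.945) and Cxcr6 (0.746, 0.574 to 0.984) did not without the myeloid-rich cells. Id2 was higher in twi, at 2.13 (1.46 to 3.25).

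Interferon-stimulated genes were higher in the twi gated cells when all were summed, but not among cells with Y transcripts only. In the list of 50 genes, 40 had enough counts, of which 21 were at least 2-fold higher and 1 lower, with a median log2 ratio of 1.14. When the 9 genes at 0 in 1 library were held at 3 UMIs, 12 were higher and 2 lower, with a median of 0.37. The sums were 5519 CPM in WT and 7835 CPM in twi, a ratio of 1.42 (1.25 to 1.62). It was 1.56 (1.33 to 1.84) without the myeloid-rich cells and 2.24 (1.80 to 2.83) in marker-high cells. Among gated cells with Y transcripts and no Xist, 6 in WT and 11 in twi, the ratio was 0.908 (0.746 to 1.11), and 1.06 (0.822 to 1.39) without the myeloid-rich cells as well. Single cells overlapped, the list taking from 649 CPM through a median of 4496 to 12571 CPM of a cell's UMIs in WT and from 956 through 5735 to 33892 in twi. The same list had a ratio of 1.99 (1.89 to 2.09) in CD8 cells and 2.02 (1.81 to 2.26) in NK cells.

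Promoter sequences of 3 list members are shown because Isg15, Ifit1 and Ifit3 are classical targets of the interferon-activated complex ISGF3, which binds the interferon-stimulated response element. Its core letters, GAAA followed by any 2 bases and again GAAA, or TTTC, any 2 bases and TTTC when read on the other strand, were sought in the 250 bases before the start of each gene (RefSeq, GRCm38.p6) and were found for 3.46% of 27025 genes and for 17 of the 37 list genes with a sequence (45.9%). Capitals mark the matches, which overlap one another in Isg15, and each stretch runs 5′ to 3′ along the gene's strand.
Isg15, chr4:156200849-156200958, minus strand: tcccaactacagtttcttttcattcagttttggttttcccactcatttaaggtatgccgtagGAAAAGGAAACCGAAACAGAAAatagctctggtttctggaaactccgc
Ifit1, chr19:34640749-34640858, plus strand: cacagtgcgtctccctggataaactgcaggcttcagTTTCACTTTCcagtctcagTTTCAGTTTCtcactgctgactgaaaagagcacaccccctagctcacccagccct
Ifit3, chr19:34583389-34583498, plus strand: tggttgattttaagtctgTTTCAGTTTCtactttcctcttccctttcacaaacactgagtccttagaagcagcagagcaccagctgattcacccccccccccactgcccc
A match describes the letters of a window and does not show binding in these cells.

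Isg15, a ubiquitin-like modifier, had 1 UMI in 16 WT gated cells and 70 UMIs in 21 of 85 twi cells, a ratio of 9.5 (1.65 to 381). In B cells it was found in 15 of 547 WT (2.74%) and 6 of 149 twi cells (4.03%). With each gated cell thinned to 1000 UMIs, which left out 4 WT cells and 1 twi cell, it was found in 0 of 12 WT cells (95% interval up to 26.5%) and in 11 of 84 twi cells (13.1%). Ifit1 and Ifit3, which encode interferon-induced proteins with tetratricopeptide repeats, had 0 UMIs in WT and 29 and 30 in twi, in 16 and 14 cells. With 3 UMIs put for 0 they were 1.31-fold and 1.36-fold higher, so depth in WT was the limit. Ly6a, encoding the surface protein Sca-1, had 3 UMIs in 2 WT cells and 191 UMIs in 42 twi cells (8.64, 2.91 to 42.3), of which 165 were in marker-high cells. Ifi47, an interferon-gamma-induced GTPase, had 1 and 72 UMIs in 1 and 39 cells (9.77, 1.70 to 391), and in marker-high cells a ratio of 5.19 with an interval (0.888 to 209) that includes 1. Gbp2, a guanylate-binding protein, had 0 and 36 UMIs (1.63-fold with 3 UMIs put for 0). Not every gene of the list went the same way. Ly6e, with the most UMIs, was at 1564 CPM in WT and 1407 CPM in twi (0.90, 0.699 to 1.17), and Igtp at 156 and 143 CPM (0.912, 0.409 to 2.39). Bst2, encoding tetherin, was at 1.36 (0.749 to 2.70) and Ifi27l2a at 1.49 (0.903 to 2.60), but in marker-high cells, with 2 UMIs and 1 UMI in WT, at 4.92 (1.32 to 41.2) and 8.73 (1.52 to 349). MHC class I and peptide loading genes were at a summed ratio of 1.1 (1.01 to 1.19), and 0.984 (0.905 to 1.07) without the myeloid-rich cells, with B2m at 1.18 (1.03 to 1.35) and 1.05 (0.913 to 1.22).

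**Figure D5:**
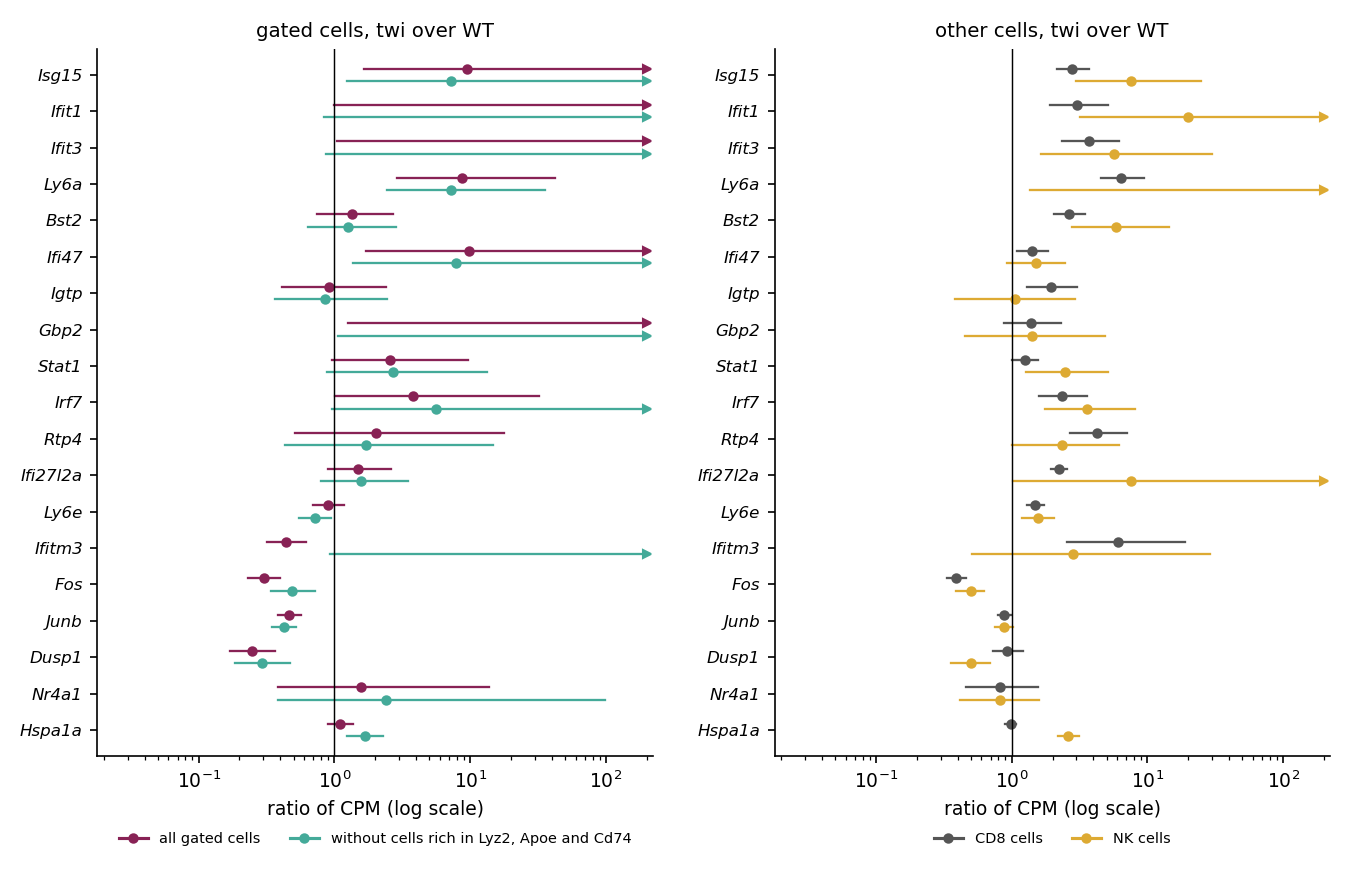
Ratio of twi over WT level, in CPM on a logarithmic axis, for interferon-stimulated genes and, in the bottom 5 lines, immediate early and stress genes. Left, gated cells with and without cells rich in Lyz2, Apoe and Cd74 transcripts, and right, CD8 and NK cells. Points are ratios of summed UMIs, lines exact 95% intervals for counting error, and arrows intervals beyond the axis, including genes at 0 in WT. Isg15, Ly6a and Ifi47 lie right of 1 in gated cells, with wide intervals, and Fos, Junb and Dusp1 left of 1.

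Immediate early and stress genes, which respond within minutes to activation and also to cell isolation, were lower in twi gated cells in sum. Of 18, 8 were at least 2-fold lower and 1 higher, with a median log2 ratio of -0.75 and a summed ratio of 0.607 (0.561 to 0.658), or 0.702 (0.638 to 0.772) without the myeloid-rich cells. Junb was at 3150 CPM in WT and 1465 CPM in twi (0.465, 0.385 to 0.565), and Dusp1 at 1005 and 249 CPM (0.247, 0.170 to 0.364). Fos was at 0.303 (0.232 to 0.398) with all cells and 0.490 (0.339 to 0.725) without the myeloid-rich ones. In marker-high cells the summed ratio was 0.798 (0.706 to 0.904) and Junb was at 0.594 (0.449 to 0.798), but the intervals of Fos (0.813, 0.463 to 1.54) and Dusp1 (0.577, 0.280 to 1.34) included 1. CD8 cells had a summed ratio of 0.966 (0.924 to 1.01) for the same list, and NK cells one of 0.945 (0.891 to 1.00). The time from dissection to lysis was not given in the sources used here, and its part in the difference was not tested. Klf2, which keeps T cells in circulation, was lower in twi in gated cells (0.564, 0.395 to 0.822, and 0.310, 0.196 to 0.506 in marker-high cells) and in CD8 cells (0.455, 0.415 to 0.499).

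Cell cycle genes had a summed ratio of 1.61 (1.27 to 2.06) in gated cells, carried by the cells with 2 to 4 marker UMIs. Stmn1 had 0 UMIs in WT and 69 UMIs in 11 twi cells, 3 of the UMIs in marker-high cells, and Top2a 0 and 28 UMIs, 2 of them there. Mki67, the proliferation marker, had 1 UMI in WT and 19 UMIs in 6 twi cells, 3 in marker-high cells. In marker-high cells the list's ratio was 0.909 (0.639 to 1.33).

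By size, the genes furthest above in twi gated cells were Xist, Apoe, Gzmc, Spp1, Stmn1, Uqcc2, Car2 and Gbp2, and those furthest below Cd209a, H2-Aa, H2-DMb1, H2-Ab1, H2-Eb1, Cd74, Ccl4 and Tmem230. Cd209a, H2-DMb1, H2-Ab1 and H2-Eb1 had all of their WT UMIs in the 1 myeloid-rich cell, and H2-Aa 82 of 83 and Cd74 228 of 229. Gzmc had 2 of its 158 twi UMIs in marker-high cells. The 32 Ccl4 UMIs of WT lay in 3 cells, against 12 UMIs in 8 twi cells. Tmem230 had 10 UMIs in 8 WT cells and 9 in 9 twi cells (0.122, 0.0439 to 0.335), and Uqcc2 0 and 42 UMIs in 30 twi cells (1.90-fold higher with 3 UMIs put for 0).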

How the data were processed

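The authors deposited UMI counts per gene and cell barcode for each library, made with Cell Ranger 2.1.1 on mm10 per the submitters' processing notes. From these counts, cells with at most 15% mitochondrial UMIs were gated as described, and UMIs were summed per gate and library and given as CPM. Intervals were exact at 95% (Clopper-Pearson for shares, Poisson for counts, conditional binomial for ratios). UMIs mark captured molecules, and the intervals leave out variation between animals. Genes needed 10 UMIs in both gates together, and log2 ratios used a pseudocount of 0.5 UMI. Members and gene lists were chosen with earlier results of these data known. Genes were named if they belonged to the gate, had the most UMIs of a list (4 each), stood on a fixed list of T17, homing, cytotoxic and interferon genes, or had the largest or smallest ratios (10 each way over CD8 or NK cells at 100 CPM and 25 UMIs, 8 each way between libraries at 100 CPM and 10 UMIs). Icos, Csf2, Cd247, Xcl1, Ifi47, Igtp, Bst2, Fos, Dusp1, Top2a, Mki67 and S100a4 were named after their values were seen. Scrublet, in scanpy 1.11.5, marked 0.313% of WT and 0.492% of twi barcodes and 0 gated cells, and doublets were not removed. Ratios were tested on simulated data, and the outcome of that is not reported here. Python 3.11.15, numpy 2.4.6, scipy 1.17.1 and matplotlib 3.10.9 were used. Values of 2 genes named by the rule are not reported here. Coordinates are from GENCODE for mm10. Alternatives were other marker, Cd3 and mitochondrial limits, thinning, single-sex cells and left-out genes.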

Additional observations from a re-analysis of the deposited data

Results flagged for a closer look

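For 9 genes the 95% counting intervals of twi over WT lay on opposite sides of 1 in gated and CD8 cells. The number of genes examined is not given here, so the count of 9 cannot be set against a share of all genes. With 1 library per genotype the difference was not tested. Ifngr1 was at 0.595 in gated cells and 1.55 in CD8 cells, and at 0.509 without the myeloid-rich cells. Klrk1, which encodes the activating receptor NKG2D, was at 0.519 and 1.84 (0.493 without them). Ccl4 was at 0.0509 and 4.03 (0.0759 without them), with its WT count in 3 cells. Lgals3, galectin 3, was at 0.502 and 1.79, but at 1.31 (0.324 to 11.5) without the myeloid-rich cells, and Vim, vimentin, at 0.685 and 1.30, but at 1.03 (0.668 to 1.66) without them. Ifitm3 was at 0.440 and 6.09, and its 50 WT UMIs lay in 1 cell, without which WT was at 0. Of the proliferation genes, Stmn1 was 3.12-fold higher in twi gated cells with 3 UMIs put for 0 in WT (lower end of the exact interval 2.47). It was at 0.791 in CD8 cells. Hmgb2 was at 2.62 and 0.853 (2.07 without the myeloid-rich cells), and Tubb5 at 1.92 and 0.753 (1.85 without them). In marker-high cells the intervals of Klrk1 (0.442, 0.143 to 1.82) and Vim (0.890, 0.544 to 1.54) included 1. So did those of Hmgb2 (0.805, 0.364 to 2.1) and Tubb5 (1.37, 0.557 to 4.37). The intervals of Ifngr1 (0.641, 0.473 to 0.884) and Ccl4 (0.0111, 0.000255 to 0.0777) did not include 1 there. Stmn1 had 3 of its 69 twi UMIs in marker-high cells. Lgals3 and Ifitm3 had 0 WT UMIs in marker-high cells.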

How the results depend on the processing

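Of 86 alternatives over 5 results, 47 stayed within counting error, 38 moved and 1 reversed. The twi over WT share was 2.49 of cells outside the B and neutrophil gates and 2.24 of Cd3 cells. The T17 list over CD8 cells went from 2.40 to 2.19, 2.69 and 3.01 with at least 1, 3 or 5 marker UMIs, 2.71 with Cd163l1 or Il17re as the marker, 2.54 with at least 2 Cd3 UMIs, 3.35 with cells thinned to 1000 UMIs, 2.1 in cells with Y transcripts only, 2.67 without Ltb, 2.54 without myeloid-rich cells and 2.64 without cells with NK receptors. Over NK cells it went from 1.58, in the same order, to 1.44, 1.78, 1.98, 1.79 (marker), 2.21 (thinned), 1.36 (Y transcripts), 1.89 (without Id2, which led the list there) and 1.74 (without NK receptors). The cytotoxic list over CD8 cells went from 0.476 to 0.547, 0.334 and 0.267 by marker UMIs, 0.363 with Cd163l1 or Il17re, 0.422 without Cd8a cells, 0.224 thinned, 0.585 with Y transcripts, 0.577 without Ccl5, 0.514 without myeloid-rich cells and 0.289 without NK receptors. The interferon list, twi over WT, went from 1.42 to 2.09 and 2.24 with at least 3 or 5 marker UMIs, 2.04 with Cd163l1 or Il17re, 1.63 with 2 Cd3 UMIs, 1.88 thinned, 1.63 without Ly6e and 1.67 without Ifitm3. It reversed to 0.908 in cells with Y transcripts only (1.06 also without myeloid-rich cells). That setting left 6 WT cells, and the cause was not tested. Chosen after seeing the data were the limit at 5 marker UMIs and the settings on myeloid transcripts, NK receptors, marker-bearing CD8 cells and Ifitm3. No paired analysis was possible because each genotype had 1 pooled library. The 44757 UMIs of the WT gated cells limited the comparisons of gated cells between libraries.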

Other observations

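Further gene lists are given here as values against CD8 cells in twi. Of all genes, 13.6% were at least 2-fold higher and 6.36% lower in that comparison. The S100, galectin and motility list had 6 of 14 genes at least 2-fold higher and 0 lower, with S100a6 at 2.41 (2.19 to 2.65) and S100a4 at 3.93 (3.37 to 4.57). S100a4 was also at 7.20 (4.78 to 11.3) over NK cells. The immediate early list had 5 of 18 genes higher and 0 lower, with Jun at 2.46 (2.20 to 2.75) and Fos at 2.16 (1.81 to 2.56). The cell cycle list had 0 higher and 8 of 18 lower, at a summed ratio of 0.708 (0.660 to 0.758), and 0.379 (0.335 to 0.426) in cells with 5 or more marker UMIs. The glycolysis list had 0 of 15 genes past 2-fold either way. Oligodendrocyte markers stood at 231 CPM in twi and 380 CPM in WT gated cells, with Mobp and Mog at 0 in both, and erythroid markers at 810 and 1899 CPM, with Alas2 at 0. Neutrophil markers came to 488 CPM in twi and 916 CPM in WT, led by S100a8, with Csf3r at 0 in both. Of the 12 innate lymphoid markers, 8 were detected in twi (422 CPM, led by Tcf7) and 5 in WT (313 CPM, led by Gata3), and Il1rl1, Il13, Il5 and Cxcr5 were at 0 in both libraries.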
